A study of Mus musculus with 6 samples.

Results

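Pericyte marker genes were examined in TGF-β-treated cardiac fibroblasts with or without Cre-mediated recombination of *Tet3*. The 8 genes, *Rgs4*, *Rgs5*, *Abcc9*, *Kcnj8*, *Cspg4*, *Mcam*, *Anpep* and *Ndufa4l2*, were found by their symbols among the 22063 genes of the count table, and none was missing. Fibroblasts came from the hearts of *Tet3* f/f mice on a C57BL/6J background, in which loxP sites flank part of *Tet3*. Cells of the control group (GFP, labelled Control) were transduced with Ad-GFP and cells of the other group (CRE, labelled Tet3 knockout) with Ad-Cre, an adenovirus that delivers the recombinase to any cell it enters. TGF-β was then given to all cells for a day, and none of the 6 libraries came from cells without it. Each group held 3 libraries. The age of the mice is not given in the sources used here, nor whether the libraries of a group came from separate mice, so p-values measure only the spread between these samples.

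Pericytes are mural cells that sit on capillaries within the vascular basement membrane and take part in vessel stability and capillary tone. No single gene defines them. They are usually recognised by a combination of genes for G protein regulators, for an ATP-sensitive potassium channel and for surface proteins, several of which are shared with smooth muscle cells, fibroblasts, endothelial cells or glia. Cultures of cardiac fibroblasts can also hold mural cells, and fibroblasts themselves can use some of these genes. In bulk libraries fewer cells of a type and less RNA per cell cannot be told apart.

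The cells carried the defining transcripts of fibroblasts, with *Col1a1* highest at 1829 FPKM over the 6 libraries (fragments per kilobase of transcript, scaled to sequencing depth, a level that allows genes to be compared). Total counts were between 17002126 and 20343590 per library. The first principal component held 71.4% of the variance and separated the groups. The second held 10.3% and set GFP replicate 1 apart from the other libraries. *Tet3* itself fell to 60.8% of its GFP level (log2 fold change -0.72, SE 0.08, edgeR adjusted p 5.36e-05), a count over the whole gene that does not single out the floxed part.

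All 8 pericyte markers had enough counts to be tested. At an adjusted p under 0.05, 2 rose in CRE libraries (*Cspg4* and *Rgs4*), 4 fell (*Ndufa4l2*, *Rgs5*, *Abcc9* and *Anpep*), and *Kcnj8* and *Mcam* did not pass. Among all 12862 genes tested, 51.2% passed the same threshold, 25.5% of all tested as higher and 25.7% as lower genes. The groups did not overlap for 6 of the 8 markers, against 59.6% of all tested genes. The study's methods call a gene at an unadjusted p under 0.05 where it is also more than 1.5-fold or less than 0.66-fold its GFP level, and 5 of the 8 passed this threshold (17.8% of all tested genes), since the rise of *Rgs4* was smaller than that fold. The median log2 fold change of the 8 was -0.52, beside 0.0052 over all tested genes. The markers thus moved in both directions within the same libraries. Scaling by library size alone shifted the median of all genes by 0.16 on the log2 scale, and none of the 6 calls changed direction under it.

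**Figure D1:**
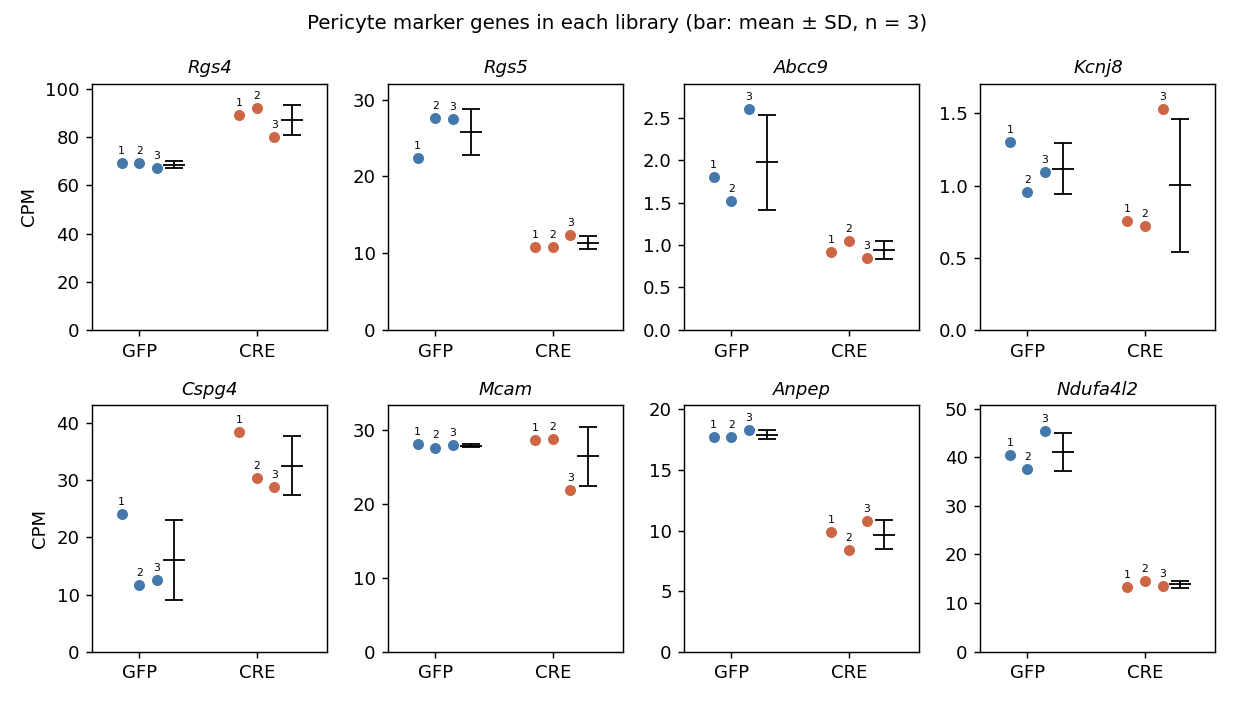
Counts scaled to a common total per library after TMM adjustment (CPM) of the 8 pericyte markers, 1 panel per gene with its own axis from 0. Points are libraries with their replicate number, blue for GFP and orange for CRE, and the bars beside them are mean ± SD (n = 3). Groups are apart for *Rgs4*, *Rgs5*, *Abcc9*, *Cspg4*, *Anpep* and *Ndufa4l2* and overlap for *Kcnj8* and *Mcam*.

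In expression level the markers spanned a wide range. In the GFP group *Ndufa4l2* had the highest level, 41.6 ± 3.99 FPKM (SD, n = 3), followed by *Rgs4* with 22.1 ± 0.41 FPKM and *Mcam* with 10.4 ± 0.72 FPKM. *Rgs5* (6.06 ± 0.70 FPKM) and *Anpep* (5.05 ± 0.46 FPKM) came next, and their libraries overlapped. *Cspg4* reached 1.87 ± 0.81 FPKM. *Kcnj8* (0.42 ± 0.054 FPKM) and *Abcc9* (0.29 ± 0.13 FPKM) were the lowest and overlapped as well. By the mean of all 6 libraries, both lay in the lower part of the expressed genes, at the 29.3rd and 25.1st percentile of genes with any FPKM, whereas on the same basis *Ndufa4l2* and *Rgs4* lay at the 84.7th and 83.6th.

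The order differed in the CRE group. *Rgs4* was now first in each CRE library with a mean of 31.4 ± 2.27 FPKM (SD, n = 3), and *Ndufa4l2* second with 15.6 ± 0.87 FPKM. *Mcam* kept the third place at 11.3 ± 1.44 FPKM. *Cspg4* (4.24 ± 0.66 FPKM) stood above *Rgs5* (2.93 ± 0.23 FPKM) in every CRE library and below it in every GFP library. *Anpep*, at 3.41 ± 1.23 FPKM, overlapped both of them. *Kcnj8* (0.42 ± 0.19 FPKM) and *Abcc9* (0.14 ± 0.016 FPKM) stayed at the bottom, now without overlap. Summed over the 8 genes, the level was between 85.2 and 91.1 FPKM in GFP libraries and between 66.7 and 70.9 FPKM in CRE libraries. This lower sum came from *Ndufa4l2*, whose mean was 41.6 FPKM in GFP and 15.6 FPKM in CRE libraries. Without *Ndufa4l2*, the sum of the remaining markers was higher in every CRE library than in any GFP library.

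The RGS pair was compared first. RGS proteins speed up GTP hydrolysis by Gα subunits and so shorten signalling from G protein-coupled receptors. *Rgs5* is a widely used pericyte marker, and *Rgs4* is a close relative used beside it. They are neighbours on chromosome 1 (GRCm38, GENCODE M21): *Rgs5* (ENSMUSG00000026678) spans positions 169655501 to 169695813 on the plus strand, and *Rgs4* (ENSMUSG00000038530) positions 169741477 to 169747642 on the minus strand, 45.7 kb away.

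GFP replicates 1, 2 and 3 held 360, 490 and 529 counts of *Rgs5*, and the CRE replicates 202, 196 and 234. Every CRE library lay well below every GFP library. In CPM it fell from 25.8 ± 2.98 to 11.3 ± 0.87 (SD, n = 3; log2 fold change -1.19, SE 0.10, adjusted p 9.04e-06), and without GFP replicate 1, the lowest GFP library, the change was -1.28. GFP libraries held 1116, 1233 and 1292 counts of *Rgs4*, and CRE libraries 1659, 1667 and 1521. All CRE libraries were above all GFP libraries, and the GFP libraries were tightly grouped. The level rose from 68.6 ± 1.34 CPM to 87.2 ± 6.22 CPM (SD, n = 3; log2 fold change 0.35, SE 0.06, adjusted p 0.000622). The rise held under each scaling, between 0.31 and 0.51 on the log2 scale across processing alternatives.

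The ratio of the RGS genes within a library does not depend on how libraries are scaled. In the GFP libraries there were 3.10, 2.52 and 2.44 *Rgs4* counts for each *Rgs5* count, and in the CRE libraries 8.21, 8.51 and 6.50. The ratio was 2.88-fold higher in CRE (difference of 1.52 on the log2 scale, from 1.42 ± 0.19 to 2.94 ± 0.21, SD, n = 3). An exact two-sided permutation test gave p = 0.1, the smallest that 3 libraries against 3 allow, and 0.15 after adjustment over the 3 ratios compared. On FPKM values the difference was 1.55.

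To show the sequence from which each gene of this divided pair starts, the 250 bases upstream of the RefSeq start are given (GRCm38.p6, 5′ to 3′ on the gene's strand), with each CpG, the dinucleotide on which TET enzymes act when it is methylated, in capitals. *Rgs5* is from chr1:169655251-169655500 on the plus strand and *Rgs4* from chr1:169747643-169747892 on the minus strand. DNA methylation was not measured in these libraries.
Rgs5: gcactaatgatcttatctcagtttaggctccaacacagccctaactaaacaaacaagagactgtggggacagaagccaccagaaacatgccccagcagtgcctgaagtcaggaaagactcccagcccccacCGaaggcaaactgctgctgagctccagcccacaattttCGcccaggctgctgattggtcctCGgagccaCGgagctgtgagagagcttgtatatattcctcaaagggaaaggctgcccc
Rgs4: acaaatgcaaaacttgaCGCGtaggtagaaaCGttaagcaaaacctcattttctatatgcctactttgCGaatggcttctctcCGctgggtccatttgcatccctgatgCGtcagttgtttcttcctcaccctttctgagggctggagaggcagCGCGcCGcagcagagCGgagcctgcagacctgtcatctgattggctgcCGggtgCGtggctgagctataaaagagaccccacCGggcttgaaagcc
The stretch upstream of *Rgs5*, which fell, holds 4 CpG, and that of *Rgs4*, which rose, holds 13. The letters TATAAA occur 31 bases before the start of *Rgs4* and are found, on either strand, in 13.6% of the 32851 promoter windows of the same kind (300 bases, from 250 before to 50 after a start).

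The R4 subfamily, to which both belong, was listed in full for comparison. Of its 10 listed genes 6 were tested, and *Rgs1*, *Rgs13*, *Rgs18* and *Rgs21* had too few counts. *Rgs16* rose from 23.1 ± 2.33 CPM to 31.1 ± 4.51 CPM (SD, n = 3; log2 fold change 0.42, SE 0.11, adjusted p 0.00888). *Rgs8* fell (log2 fold change -1.60, SE 0.42, adjusted p 0.00909), although at only 19 to 31 counts in GFP and 4 to 13 in CRE libraries, and it did not pass on log2(FPKM + 1) values (-0.38, adjusted p 0.0739). *Rgs2* and *Rgs3* did not pass, with log2 fold changes of -0.58 (95% interval -1.35 to 0.19) and -0.07. In all 2 of 6 were higher and 2 lower, *Rgs4* and *Rgs5* included, beside 25.5% and 25.7% of all tested genes.

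The channel subunits were examined next. *Kcnj8* codes for Kir6.1, the pore of the vascular ATP-sensitive potassium channel, and *Abcc9* for SUR2, the sulfonylurea receptor that regulates it. They also lie side by side, on the minus strand of chromosome 6. *Kcnj8* (ENSMUSG00000030247) spans positions 142564837 to 142571614 and *Abcc9* (ENSMUSG00000030249) positions 142587862 to 142702315, 16.2 kb apart. Both had few counts, which limits the precision of either value.

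GFP libraries held 29, 27 and 50 counts of *Abcc9*, and CRE libraries 17, 19 and 16. The groups did not overlap, and GFP replicate 3 was the highest library. The level fell from 1.97 ± 0.56 CPM to 0.94 ± 0.11 CPM (SD, n = 3; log2 fold change -1.08, SE 0.29, adjusted p 0.00982). Without GFP replicate 3 the change was -0.82 with an adjusted p 0.0491, just under the threshold. It did not pass on FPKM values (limma on log2(FPKM + 1), change -0.18, adjusted p 0.101), a scale that understates changes of genes at such low levels. With a pseudocount of 0.1 in place of 1 the change was -0.69 and the adjusted p 0.0641.

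GFP libraries held 21, 17 and 21 counts of *Kcnj8*, and CRE libraries 14, 13 and 29. CRE replicate 3 was the highest of all 6 and the other CRE libraries the lowest. The log2 fold change was -0.15 with a 95% interval from -0.93 to 0.63 (adjusted p 0.751). The interval includes both a fall and a rise. Without CRE replicate 3 the change was -0.59 and the adjusted p 0.185. Counts of *Abcc9* per count of *Kcnj8* were 1.38, 1.59 and 2.38 in GFP and 1.21, 1.46 and 0.55 in CRE libraries, and these overlapped. The difference of the log2 ratio was -0.81 (exact two-sided permutation p = 0.2, also 0.2 after adjustment, where 3 libraries against 3 cannot go below 0.1). The alternative subunits of the channel family, *Abcc8* (SUR1) and *Kcnj11* (Kir6.2), had 0 counts in every library, which allows up to between 0.156 and 0.186 CPM per library (3 counts, counting error only).

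**Figure D2:**
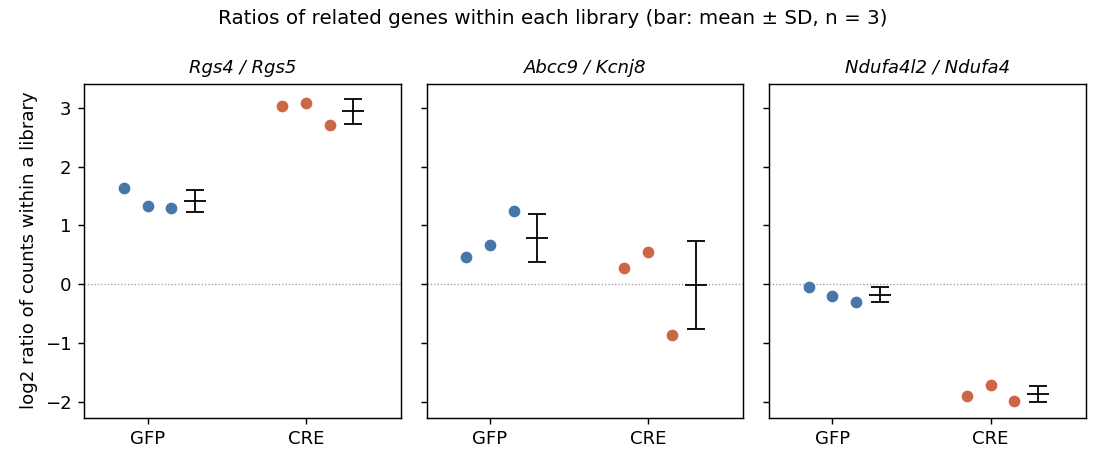
Log2 ratio of the counts of related genes within each library, on 1 shared axis: *Rgs4* over *Rgs5*, *Abcc9* over *Kcnj8*, and *Ndufa4l2* over *Ndufa4*. Points are libraries (blue GFP, orange CRE) and bars mean ± SD (n = 3). The first ratio is higher and the third lower in all CRE libraries, while the middle one overlaps.

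Surface proteins made up the next group. *Cspg4* codes for the proteoglycan NG2, a pericyte marker that glial progenitors share and that binds collagen VI and growth factors. *Cspg4* (ENSMUSG00000032911, chromosome 9, positions 56865033 to 56899870, plus strand) was counted 388, 206 and 240 times in the GFP libraries, against 716, 549 and 545 times in CRE. All CRE libraries were higher than all GFP libraries, and GFP replicate 1 stood above the other GFP libraries. The level rose from 16.1 ± 6.99 CPM to 32.5 ± 5.19 CPM (SD, n = 3; log2 fold change 1.03, SE 0.23, adjusted p 0.00378). Without GFP replicate 1, the library apart on the second component, the change was 1.43 with an adjusted p 3.19e-06. This was the largest rise among the 8 genes.

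*Mcam* codes for CD146, an adhesion molecule of mural and endothelial cells that binds laminins with the α4 chain. *Mcam* (ENSMUSG00000032135, chromosome 9, positions 44134469 to 44142727, plus strand) was counted 451, 490 and 538 times in the GFP libraries, against 534, 520 and 414 times in CRE. After scaling, GFP libraries lay between 27.6 and 28.0 CPM, and the CRE libraries had 28.7, 28.8 and 21.8 CPM. CRE replicate 3 alone was below the GFP libraries. The log2 fold change was -0.08 with a 95% interval from -0.30 to 0.14 (adjusted p 0.548). Its sign turned under scaling by library size alone (0.086), on FPKM values (0.11 and 0.12) and without CRE replicate 3 (0.048).

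*Anpep* codes for aminopeptidase N (CD13), a membrane enzyme that removes single residues from the N-terminus of peptides and is found on pericytes, fibroblasts and myeloid cells. *Anpep* (ENSMUSG00000039062, chromosome 7, positions 79821803 to 79861059, minus strand) was counted 285, 315 and 353 times in the GFP libraries, against 184, 151 and 204 times in CRE. In counts the groups were far apart compared with their spread. The level fell from 17.9 ± 0.35 CPM to 9.67 ± 1.22 CPM (SD, n = 3; log2 fold change -0.89, SE 0.10, adjusted p 5.51e-05). On the deposited FPKM values the groups overlapped, with CRE replicate 3 at 4.81 FPKM, above GFP replicate 1 at 4.53 FPKM, and the other CRE libraries at 2.93 and 2.49 FPKM. With limma the change was -0.49 on log2(FPKM + 1) values (adjusted p 0.0478).

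Sequence before the RefSeq starts of *Cspg4*, the marker with the largest rise, and *Anpep*, a surface marker that fell, is shown in the same way as for the RGS pair. *Cspg4* is from chr9:56864854-56865032 on the plus strand, 179 bases that end where the first exon of a GENCODE transcript begins. *Anpep* is from chr7:79848211-79848460 on the minus strand, 250 bases that lie inside the span of the gene in GENCODE, between exons of its longer transcripts (GRCm38.p6).
Cspg4: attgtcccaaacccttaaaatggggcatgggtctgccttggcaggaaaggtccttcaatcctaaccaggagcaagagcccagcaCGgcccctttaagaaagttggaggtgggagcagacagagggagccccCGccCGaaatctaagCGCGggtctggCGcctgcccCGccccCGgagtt
Anpep: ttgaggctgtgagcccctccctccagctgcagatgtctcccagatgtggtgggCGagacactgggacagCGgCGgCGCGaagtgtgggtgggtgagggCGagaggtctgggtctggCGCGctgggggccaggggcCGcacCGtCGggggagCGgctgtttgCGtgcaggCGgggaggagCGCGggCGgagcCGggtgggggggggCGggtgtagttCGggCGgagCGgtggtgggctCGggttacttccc
The *Cspg4* stretch holds 8 CpG and the *Anpep* stretch 23. Counted over the whole 300-base windows, which were found for 7 of the 8 markers, higher genes held 13 (*Rgs4*) and 17 (*Cspg4*) CpG, lower genes 6 (*Rgs5*), 16 (*Abcc9*) and 28 (*Anpep*), and genes that did not pass 9 (*Kcnj8*) and 29 (*Mcam*). The median over all windows was 7. The numbers of lower and higher genes overlapped, and no test was made. *Ndufa4l2* had no entry.

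Of the letters searched in these windows on both strands, GGGCGG, a binding sequence of SP1-like factors, occurred in those of *Abcc9*, *Cspg4*, *Mcam* and *Anpep* (35.7% of all windows), with 5 matches in *Mcam* and 4 in *Anpep*. CAGAC, the core of SMAD binding sites, occurred in 6 windows, all but that of *Mcam* (49.6% of all windows). TGACGT, part of the cyclic AMP response element, was found once on each strand of the *Mcam* window, the matches overlapping (7.51% of all windows). GGAATG, a TEAD sequence (14.7% of all windows), occurred in *Abcc9*, where it overlaps TGGGAA, an RBPJ sequence (25.6%) that was also in *Kcnj8*. CACGTG (7.15% of all windows) and ACGTG (19.6%), which it contains, were in none of the 7. These are matches of letters only.

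Ligands of NG2 and CD146 were looked at beside their receptors. Of 8 listed, 2 were higher and 3 lower, or 5 lower without GFP replicate 1, beside 25.5% higher and 25.7% lower of all tested genes. *Fgf2* rose from 388.8 CPM to 773.0 CPM (log2 fold change 0.99, SE 0.10) and *Pdgfa* by 0.72 (SE 0.09). *Lama4*, which codes for the α4 laminin chain bound by CD146, fell by 0.68 on the log2 scale (SE 0.05). *Lgals3*, at a lower level, fell by 0.77 (SE 0.14). *Col6a1* had the highest level, 131 FPKM, and a log2 fold change of -0.24 (SE 0.07, adjusted p 0.0141), which did not pass with library size alone, on FPKM values, without GFP replicate 2 (adjusted p 0.0503) or without CRE replicate 1 (adjusted p 0.067). *Col6a2* and *Col6a3* did not pass, and both passed as lower without GFP replicate 1. Among surface and M1 peptidases related to *Anpep*, 3 of 7 tested fell, *Anpep* included, and none rose, although 2 rose with library size alone (51.2% of all tested genes passed in either direction). *Fap*, the fibroblast activation protein, fell by 1.11 on the log2 scale (SE 0.14) and *Npepps*, a cytosolic relative of *Anpep*, by 0.31 (SE 0.05).

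The mitochondrial marker fell furthest. *Ndufa4l2* codes for a hypoxia-induced relative of NDUFA4, a small protein of respiratory complex IV, and is known to dampen mitochondrial respiration. *Ndufa4l2* (ENSMUSG00000040280, chromosome 10, positions 127514967 to 127517154, plus strand) was counted 652, 666 and 872 times in the GFP libraries, against 247, 264 and 257 times in CRE. The CRE libraries were all close together and far below the lowest GFP library. The level fell from 41.1 ± 3.91 CPM to 13.8 ± 0.71 CPM (SD, n = 3), or to 33.6%, with a log2 fold change of -1.57 (SE 0.08, adjusted p 5.1e-07). It passed in all 14 alternatives, with changes from -1.64 to -1.35. Its last 32 bases overlap the end of *Shmt2* on the opposite strand, which fell as well (log2 fold change -1.28, SE 0.07), and whether counting used the strand is not stated.

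The paralogue *Ndufa4* did not follow. It had a level of 46.8 ± 7.70 CPM in GFP and 50.5 ± 2.96 CPM in CRE libraries (SD, n = 3), a log2 fold change of 0.11 with a 95% interval from -0.12 to 0.33 (adjusted p 0.407). It passed as higher with library size alone, on log2(FPKM + 0.1) values and without GFP replicate 3. Counts of *Ndufa4l2* per count of *Ndufa4* were 0.97, 0.87 and 0.81 in GFP and 0.27, 0.30 and 0.25 in CRE libraries. The log2 ratio fell by 1.69 (exact two-sided permutation p = 0.1, the smallest possible, 0.15 after adjustment), whichever way libraries are scaled. *Cox4i1*, the common isoform of a complex IV subunit, was at -0.17 (SE 0.05, adjusted p 0.0143), and this passed in 8 of 14 alternatives. *Cox4i2*, its hypoxia-linked and pericyte-enriched isoform, had 3 to 17 counts per library and was not tested.

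Since *Ndufa4l2* is known as a target of hypoxia-inducible factors (HIF), other HIF targets were listed beside it. Of 9 tested 8 fell and none rose (6 fell with library size alone), beside 25.7% lower and 25.5% higher of all tested genes. The median log2 fold change of the 9 was -0.81, beside 0.0052 over all tested genes. *Adm*, which codes for the vasodilator adrenomedullin, fell from 81.1 ± 1.79 CPM to 27.7 ± 3.69 CPM (SD, n = 3; log2 fold change -1.55, SE 0.08), close to the size seen for *Ndufa4l2*. *Ndrg1* (-1.21) and the prolyl hydroxylase *Egln3* (-1.07) followed. *P4ha1* had the highest level of the list (256 FPKM) and fell by 0.62 on the log2 scale (SE 0.04). *Vegfa* (-0.23) and *Egln1* (-0.23) fell least, and neither passed on FPKM values or with library size alone. The call of *Vegfa* was also lost in turn without GFP replicates 2 and 3 and CRE replicates 1 and 3. The glucose transporter *Slc2a1* did not pass (log2 fold change -0.12, adjusted p 0.0616). Oxygen was not a variable of the design.

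**Figure D3:**
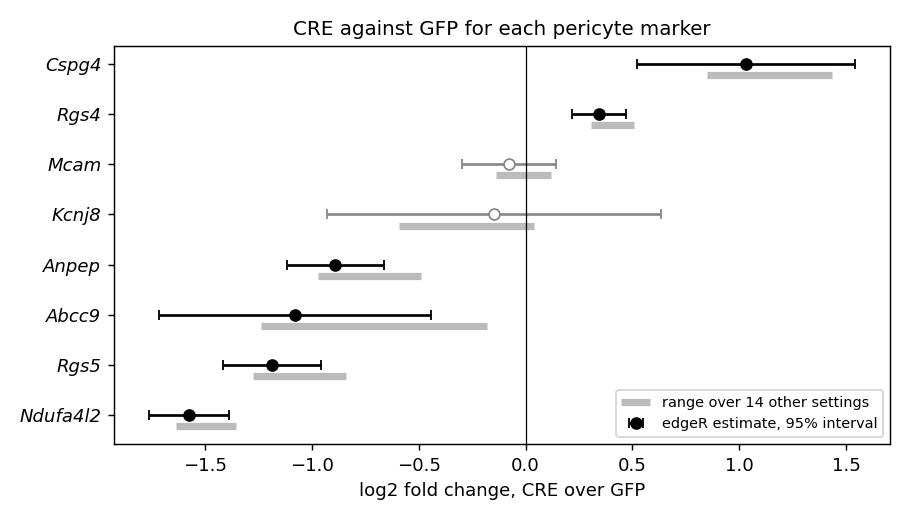
Log2 fold change of each pericyte marker, CRE over GFP, with the 95% interval of the edgeR fit (filled points passed an adjusted p 0.05, open points did not). Grey bars span the estimates from 14 other processing settings. *Cspg4* (1.03) and *Rgs4* (0.35) lie above 0, 4 genes from *Anpep* (-0.89) to *Ndufa4l2* (-1.57) lie below it, and the intervals of *Mcam* and *Kcnj8* include 0.

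Other mural markers, a list of 20 genes that shares none with the 8, were counted in the same way. Of 18 tested, 4 rose, 8 fell and 6 did not pass, with a median log2 fold change of -0.27, beside 25.5% higher and 25.7% lower of all tested genes. With library size alone 6 rose and 8 fell (median -0.10), and on FPKM values 6 rose and 7 fell. *Pdgfrb*, the receptor through which PDGF-BB recruits pericytes, had by far the highest level (162 FPKM) and fell by only 0.31 on the log2 scale (SE 0.05, adjusted p 0.000804), which did not pass on FPKM values (adjusted p 0.055). The largest falls were those of *Gucy1a1* (from 15.7 ± 0.95 CPM to 3.64 ± 0.55 CPM, SD, n = 3; log2 fold change -2.10, SE 0.12) and *Gucy1b1* (-0.97, SE 0.07), the subunits of the soluble guanylate cyclase that senses nitric oxide, and of *Gja4* (-1.28, SE 0.09), which codes for connexin 37.

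The largest rise belonged to *P2ry14*, a receptor for UDP-sugars, from 4 to 11 counts in the GFP libraries to 48 to 55 counts in the CRE libraries (log2 fold change 2.88, SE 0.31, adjusted p 4.2e-05). For *Colec11* the rise was 1.17 (SE 0.38), with 8 to 33 counts in a library, and for *Foxs1*, a forkhead factor of mural cells, 0.47 (SE 0.16). The call of *Colec11* was lost without GFP replicate 2 or 3 or CRE replicate 2 (highest adjusted p 0.0962), and that of *Foxs1* in these cases and without CRE replicate 1 (highest adjusted p 0.12) and with DESeq2 (0.064). The number of higher genes in the list went from 4 to 2 without GFP replicate 3, CRE replicate 1 or CRE replicate 2. *Notch3* (-0.22, adjusted p 0.0796) did not pass, whereas it passed as lower without GFP replicate 1 (-0.30, adjusted p 0.0186), and its sign turned on FPKM values. *Higd1b*, often used as a pericyte marker, had 0 counts in every library.

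Signals by which vessels recruit pericytes were mostly lower. Of 12 listed and tested, 9 fell and 1 rose (median log2 fold change -0.76), beside 25.7% lower and 25.5% higher of all tested genes. *Pdgfrb*, *Angpt1* and *Notch3* were counted in the mural list as well, *Tek* among the endothelial markers and *Pdgfb* among the ligands of NG2 and CD146. With library size alone 8 fell and 1 rose. Both endothelin receptors fell, *Ednra* by 1.05 on the log2 scale (SE 0.12) and *Ednrb* by 2.10 (SE 0.36) at 18 to 30 counts in GFP and 4 to 6 in CRE libraries. The angiopoietin receptor *Tek* fell by 1.20 (SE 0.08). *Hbegf*, an EGF family ligand, rose from 34.4 ± 1.91 CPM to 84.4 ± 17.3 CPM (SD, n = 3; log2 fold change 1.30, SE 0.13). *Pdgfb* did not pass (log2 fold change -0.26, adjusted p 0.103) but did without CRE replicate 1 (-0.36, adjusted p 0.0467).

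Markers of several other cell types differed between the groups too. For comparison, 25.7% of all tested genes were lower and 25.5% higher. Endothelial markers, among which *Emcn* had the highest level (31.0 FPKM), were lower for 11 of 13 tested genes, and their summed level was between 153 and 163 FPKM in GFP and between 77.3 and 93.7 FPKM in CRE libraries. Smooth muscle markers were lower for 8 of 9 (summed level between 1093 and 1289 FPKM against 568 to 652 FPKM, *Acta2* highest), and fibroblast markers for 10 of 12 (8101 to 8453 FPKM against 4998 to 5366 FPKM). No gene of these 3 lists rose, with library size alone either. Macrophage markers were lower for 2 of 5 (at least 20.8 FPKM in each GFP and at most 16.4 FPKM in each CRE library, *Lyz2* highest). Of the glial markers reported, *Sox10*, *Cdh19* and *Mbp* did not pass (log2 fold changes 0.02, -0.02 and -0.07). None of 10 cardiomyocyte markers had enough counts to be tested, *Myh6* and *Myl7* being at 0. The part of any of these cell types in the values of the pericyte markers was not tested.

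**Figure D4:**
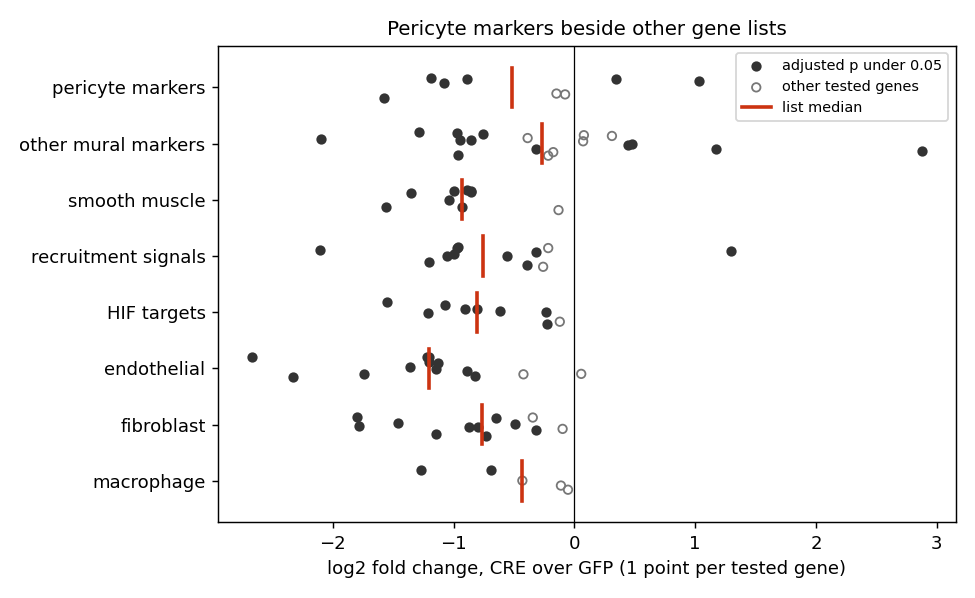
Log2 fold change, CRE over GFP, of every tested gene of the pericyte markers and of 7 other lists, 1 point per gene (filled, adjusted p under 0.05; open, not passed; red bar, list median). Points are spread vertically only for legibility, and some genes stand in more than 1 list. The pericyte and other mural markers fall on both sides of 0, whereas all endothelial, smooth muscle and fibroblast genes that passed lie below it.

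The genes nearest to each marker in pattern were searched among 8805 or 8806 tested genes whose mean reached 10 CPM, by the root-mean-square distance between log2 CPM values centred on each gene's mean over the 6 libraries. The search was made for the 5 markers past the fold threshold of the study. Nearest to *Rgs5* were *Id3*, at a distance of 0.023, and *Col3a1* (0.048). *Anpep* was nearest to *Rasl11a* (0.020) and *Fam20a* (0.054), and *Ndufa4l2* to the lactate transporter *Slc16a3* (0.075) and to *Lypd1* (0.11). The closest genes to *Cspg4*, *Mup20* (0.14) and *Shc2* (0.20), and to *Abcc9*, *Galk1* (0.14) and *Pgk1* (0.19), were farther away. *Abcc9* had 16 to 50 counts per library, under the 10 CPM that compared genes had to reach. Counting error therefore weighs more on its distances. *Mup20* belongs to a family of related genes, so its counts may be uncertain.

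In the genome, the genes next to the markers were looked up. Apart from the markers themselves there were 12 nearest genes of the table, of which 8 were tested, 3 rose, 3 fell and 2 did not pass, beside the 25.5% higher and 25.7% lower among all tested genes. *Abcc9* and *Kcnj8* lie between *Ldhb*, which rose by 1.17 on the log2 scale (SE 0.10), and *Cmas*, which rose by 0.38 (SE 0.07).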

How the data were processed

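RNA-seq libraries of 3 GFP and 3 CRE samples were grouped by title. The authors used Trimmomatic for trimming and HISAT2 for mapping to GRCm38 (study's methods) and deposited raw read counts per gene from HTSeq-count, with no normalization, and FPKM from Cufflinks. Versions and strand setting are not given in the sources used here, and labels and methods name different library kits. The log2 fold changes, p-values and false discovery rates that the authors deposited, and their mean FPKM, were not used.

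Counts were analysed with edgeR 4.0.16 in R 4.3.3: filterByExpr (minimum count 10, minimum total 15), TMM scaling, and a quasi-likelihood test (two-sided) with Benjamini-Hochberg adjustment over 12862 tested genes. SE is the absolute log2 fold change over the square root of F. The test was first run on 5 simulated sets, each with 200 planted changes of 1.5-fold or 0.66-fold, and recovered 72.9% of them. Libraries within a group were not copies of each other: their counts differed beyond sampling noise. Alternatives used DESeq2 1.42.0 and limma 3.58.1 on log2(FPKM + 1) or log2(FPKM + 0.1), with a trend, among others. Positions are from GENCODE M21 and promoter windows from RefSeq (GRCm38.p6), matched by symbol for 7 of 8 genes.

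The genes and lists were chosen with earlier results of these data known. Named were all 8 markers, the passing genes of partner lists (up to 4 by FPKM), and of the mural, recruitment and HIF lists the 3 highest, the 3 lowest and the best expressed, with the best expressed marker of each other cell type (1 glial marker is not reported here) and the 2 genes nearest in pattern to each marker past the study's threshold. *Rgs2*, *Rgs3*, the untested RGS genes, *Abcc8*, *Kcnj11*, *Ndufa4*, *Cox4i2*, *Lgals3*, *Col6a2*, *Col6a3*, *Higd1b*, *Shmt2*, *Ldhb*, *Cmas*, *Angpt1*, *Sox10*, *Cdh19*, *Mbp*, *Myh6* and *Myl7* were added for context after their values were seen.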

Additional observations from a re-analysis of the deposited data

How the results depend on the processing

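Each value was recomputed under 14 alternatives: RLE, upper-quartile or no scaling factors, no filter beyond 1 count, DESeq2, limma on FPKM with a pseudocount of 1 or 0.1, the replicate number as a block, and each of the 6 libraries left out. The 8 markers gave 112 such values, of which 103 kept their direction and side of the threshold, 2 (both *Abcc9* on FPKM) lost the call and 7 changed sign without having a call. The changes of sign were those of *Kcnj8* with library size alone (0.013), without CRE replicate 1 (0.026) and without CRE replicate 2 (0.042), and of *Mcam* with library size alone (0.086), on log2(FPKM + 1) values (0.11), on log2(FPKM + 0.1) values (0.12) and without CRE replicate 3 (0.048). Of the other genes, none of them past the threshold, *Slc2a1* changed sign with library size alone (0.042) and with FPKM (0.038 and 0.039), and *Notch3* with FPKM (0.13 and 0.18). Leaving out each library gave *Kcnj8* -0.59 to 0.042 and *Mcam* -0.14 to 0.048. For all of these changes the cause was not tested. The number of higher markers was 2 and that of lower markers 3 or 4 in all of them. In the list of other mural markers between 2 and 4 genes were higher when a library was left out. Library size alone made 72.6% of all calls higher in place of 49.8%, and limma on FPKM 72.2%.

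The ratio of *Rgs4* to *Rgs5* differed by 1.45 to 1.65 on the log2 scale when a library was left out, that of *Ndufa4l2* to *Ndufa4* by -1.77 to -1.62, and that of *Abcc9* to *Kcnj8* by -1.08 to -0.38. Whether the replicate numbers pair the libraries is not known. Deviations of same-numbered libraries correlated at 0.046, 0.18 and -0.018, and not every library correlated best with its own number. With 3 libraries per group these values cannot settle the question. With the replicate block 2 markers were higher and 4 lower, and *Pdgfb* passed as lower (-0.27, adjusted p 0.0324). Among ligands of NG2 and CD146 the lower calls went from 3 to 6 with it, *Pdgfb*, *Col6a2* and *Col6a3* being added. Among the 8 markers, depth limits *Abcc9* and *Kcnj8* most, with between 13 and 50 counts per library.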

Other observations

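Dividing a gene's count by its FPKM and by the library total gives the transcript length, in kb, that the deposited FPKM implies. This quantity was looked at after the values of *Anpep* had been seen. It was the same in every library for *Rgs4* (2.94 kb), *Cspg4* (8.12 kb) and *Ndufa4l2* (0.93 kb). For *Anpep* it was 3.69, 3.18 and 3.25 kb in GFP replicates 1, 2 and 3 and 3.55, 3.57 and 2.37 kb in the CRE replicates, so that the deposited FPKM of CRE replicate 3 is higher for its count than those of the other libraries. For *Mcam* it ranged from 2.35 to 2.74 kb in GFP and from 2.33 to 2.74 kb in CRE libraries. For *Abcc9* GFP replicate 3 stood at 5.56 kb, below the 7.12 to 7.33 kb of all other libraries. Counts and FPKM came from different tools, and the cause of these differences was not tested.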
